A study of Mus musculus with 9 samples.

Results

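The Ccl21 copies are near-identical mouse genes for 1 chemokine, and 3 of them, Ccl21b, Ccl21c and Gm13304, had a probe on the array. The members were taken by the RefSeq accession that the scanner files give each probe, and they are 3 of the 112 genes that such an accession named on the array. The genes were chosen by their measured levels on these arrays, which were already known to be higher in CaPO4 and naringenin aortas than in controls, so the differences between CaPO4 or naringenin aortas and control aortas below are given as descriptions, and nothing is read from whether the copies passed a threshold there. RNA was measured on 9 single-colour Agilent arrays of mouse abdominal aorta, 3 for each of 3 groups, all from male mice. Naringenin aortas came from mice with an abdominal aortic aneurysm treated with naringenin (NGN), a citrus flavonoid. CaPO4 aortas came from mice given calcium phosphate, which is used to induce an aneurysm, without naringenin. Control aortas came from mice titled as wild type. The labels give no strain, age, dose or time. The design text speaks of 5 aortas in each group that were mixed, without saying how they were divided over the 3 arrays of a group. If the arrays of a group held 1 pool, the spread between them is technical. With 3 arrays a group, all values below have limited precision.

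CCL21 is a secreted chemokine that binds the receptor CCR7 on naive T cells and mature dendritic cells. Stromal cells of lymph nodes and the endothelium of lymphatic vessels produce it, and it guides CCR7-bearing cells into lymphatic vessels and into the T cell zones of lymph nodes. In the mouse the gene was duplicated several times on chromosome 4, and copies with serine or leucine at 1 residue of the protein are known for expression mainly in lymphoid organs and in lymphatic vessels of other tissues.

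The RefSeq table used for names lists 6 genes under the older chemokine name 6Ckine, all on chromosome 4: Ccl21a, Ccl21b, Ccl21c, Ccl21d, Gm13304 and Gm10591. No probe on the array carried a RefSeq accession that this table gives to Ccl21a, Ccl21d or Gm10591, so 3 copies had a named probe and 3 did not. Each of the 3 probes is a single spot on the array. The scanner files do not hold the probe sequences, so whether a probe also binds RNA of another copy could not be read from them. The table gives Ccl21c, Ccl21d, Gm13304 and Gm10591 a length of 1131 bases and Ccl21a 1132, while the annotated Ccl21b gene spans 83706 bases.

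Sequences upstream show how alike some of the copies are, but of the copies with a probe only Gm13304 is among these. RefSeq promoter windows of GRCm38.p6 were at hand for 5 of the 6 copies, Ccl21c being the exception, and the 250 bases before each annotated start are given 5′ to 3′. Capitals mark the positions at which Ccl21a or Ccl21d differs from Gm13304.
Gm13304: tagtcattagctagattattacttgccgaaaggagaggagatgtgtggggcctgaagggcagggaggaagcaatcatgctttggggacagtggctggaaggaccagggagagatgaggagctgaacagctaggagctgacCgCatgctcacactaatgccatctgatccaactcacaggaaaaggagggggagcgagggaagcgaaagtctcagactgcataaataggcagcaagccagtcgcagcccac
Ccl21d: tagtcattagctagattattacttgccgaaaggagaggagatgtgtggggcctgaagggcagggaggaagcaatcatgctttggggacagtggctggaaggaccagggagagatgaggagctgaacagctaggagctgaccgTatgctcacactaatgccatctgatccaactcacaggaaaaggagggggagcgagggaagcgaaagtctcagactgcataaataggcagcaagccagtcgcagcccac
Ccl21a: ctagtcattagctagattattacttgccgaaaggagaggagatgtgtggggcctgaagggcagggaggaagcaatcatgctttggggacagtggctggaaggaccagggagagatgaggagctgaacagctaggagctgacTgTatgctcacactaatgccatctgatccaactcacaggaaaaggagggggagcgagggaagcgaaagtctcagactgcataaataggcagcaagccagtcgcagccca
Ccl21b: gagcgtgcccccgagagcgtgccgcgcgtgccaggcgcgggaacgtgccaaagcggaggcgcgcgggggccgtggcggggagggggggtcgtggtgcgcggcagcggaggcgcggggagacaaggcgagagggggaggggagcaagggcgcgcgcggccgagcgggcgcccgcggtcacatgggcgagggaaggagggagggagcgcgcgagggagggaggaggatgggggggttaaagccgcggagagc

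The window of Gm13304 lies on the plus strand at chr4:42114537-42114786. That of Ccl21d lies on the plus strand at chr4:41903363-41903612 and differs from it at 1 of 250 bases, C143T, with positions counted from 1 at the 5′ end of the Gm13304 window and the base of Gm13304 first. The window of Ccl21a, on the minus strand at chr4:42773992-42774241, is shifted by 1 base and differs at 2 of 249 shared bases, C141T and C143T. Gm10591 has the same 250 bases as Gm13304. The window of Ccl21b, on the plus strand at chr4:42172870-42173119, is unlike the others, with 34.4% of 241 bases equal at the best ungapped shift and a G and C content of 78%, against 53.6% for Gm13304. It lies before the annotated start of the Ccl21b gene, which spans 83706 bases. Whether the transcript that the Ccl21b probe was named for starts there was not checked. Searched on both strands, neither the TATA box letters TATAAA nor GGG followed after 5 free bases by CC, which is common to NF-kappaB sites, occur in any of these 5 windows. TATAAA occurs in 12.4% and the second pattern in 45.8% of the 32851 upstream windows of the same length in the table. These letters being absent says nothing about the factors themselves.

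All 3 probes were bright in every aorta. On control 1 to 3, Ccl21b had a background-subtracted intensity of 3984, 3947 and 3660 units, and its raw signal stood 119 to 134 times above the local background. The highest intensity of any of the 3 probes was 96555 units, for Ccl21c on naringenin 3, where the raw signal was 12.3% of the saturation value. None of the 27 spot values carried an outlier or saturation mark, and all 3 probes passed the filter on dim probes on all 9 arrays, so none entered the tests only through the group where it was high.

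Levels are log2 intensities counted from the 75th percentile on the same array, which is 0 on this scale. Ccl21b had levels of 9.59, 9.57 and 8.51 on naringenin 1 to 3, of 7.58, 9.65 and 7.70 on CaPO4 1 to 3, and of 5.05, 5.05 and 4.93 on control 1 to 3. Ccl21c had levels of 9.56, 9.59 and 8.66 on naringenin 1 to 3, of 7.70, 9.71 and 7.79 on CaPO4 1 to 3, and of 5.25, 5.54 and 5.58 on control 1 to 3. Gm13304 had levels of 9.58, 9.61 and 8.51 on naringenin 1 to 3, of 7.75, 9.70 and 7.79 on CaPO4 1 to 3, and of 5.13, 5.17 and 5.32 on control 1 to 3. For each probe the naringenin and CaPO4 arrays all lay above the control arrays without overlap, as was so for 33.9% of all probes in naringenin against control and for 22.9% in CaPO4 against control. The naringenin and CaPO4 groups overlapped for all 3 copies, while 12.6% of all probes lay higher in naringenin without overlap: CaPO4 2 lay above all 3 naringenin arrays while CaPO4 1 and 3 lay below them.

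**Figure D1:**
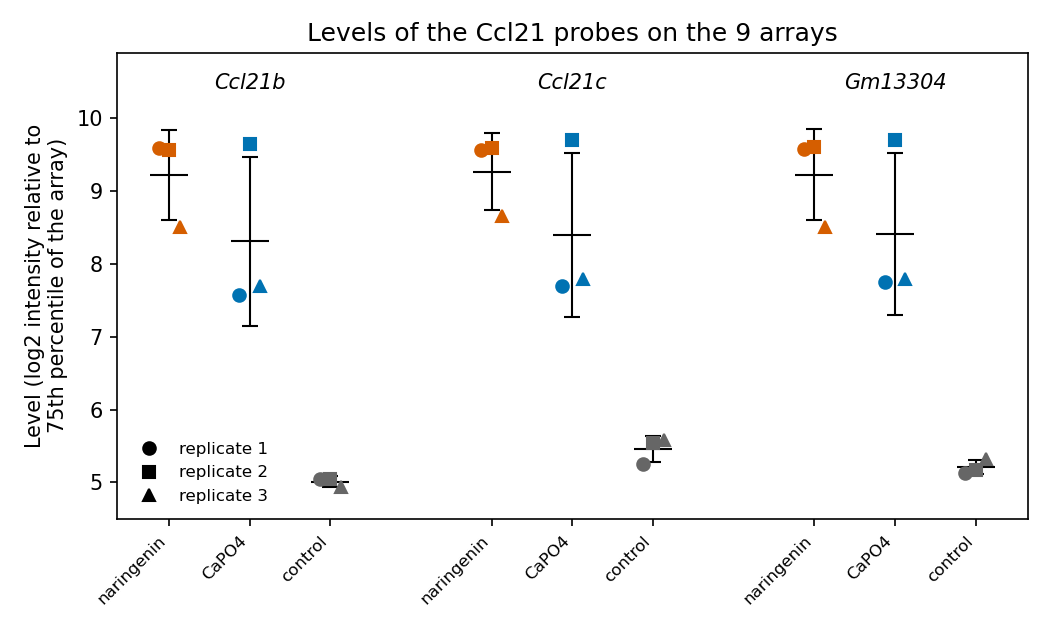
Level of each Ccl21 probe (y axis, log2, relative to the 75th percentile of each array) in naringenin, CaPO4 and control aortas. Points are arrays with a marker shape per replicate number, horizontal bars are group means and error bars are SD (n = 3 arrays); CaPO4 2, the blue square, lies above the other CaPO4 arrays by about the same amount for each probe.

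The order of the group means was the same for each probe, with naringenin highest and control lowest. Ccl21b averaged 9.22 ± 0.62 in naringenin, 8.31 ± 1.16 in CaPO4 and 5.01 ± 0.07 in control aortas (SD, n = 3 each). Ccl21c averaged 9.27 ± 0.53 and Gm13304 9.23 ± 0.63 in naringenin aortas. In CaPO4 aortas Ccl21c averaged 8.40 ± 1.13 and Gm13304 8.41 ± 1.11, and in control aortas they averaged 5.46 ± 0.18 and 5.21 ± 0.10. The spread within CaPO4 was thus larger than the distance between the naringenin and CaPO4 means, while the distance of both to the controls exceeded every within-group SD.

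Naringenin minus CaPO4 was the comparison that did not lead to the choice of the genes, although it shares the CaPO4 arrays with the one that did. Ccl21b differed by 0.91 ± 0.55 log2 (SE, n = 3 per group), with a 95% interval of -0.31 to 2.13 (limma adjusted p = 0.301). Ccl21c differed by 0.87 ± 0.53, with an interval of -0.31 to 2.06 (limma adjusted p = 0.309), and Gm13304 by 0.82 ± 0.54, with an interval of -0.37 to 2.02 (limma adjusted p = 0.341). So 0 of the 3 copies passed at an adjusted p under 0.05, in a comparison where 2.18% of 37498 probes passed, and none had an unadjusted p under 0.05 (0.127, 0.133 and 0.157), against 10069 of all probes in the limma fit. The median difference was 0.87 over the copies, 0.12 over all probes and 0.84 over the 112 tested probes with a RefSeq accession. These 112 probes passed the filter on dim probes, matched to a gene name or not, and are not the 112 named genes counted above. Fewer cells that make a transcript and less RNA per cell cannot be told apart in such whole-tissue RNA.

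That outcome rested on CaPO4 2. Over 18743 probes measured on all arrays, CaPO4 2 correlated across probes at 0.821 and 0.828 with CaPO4 1 and 3 and at 0.972 with each of naringenin 1 and 2, so it did not lie with its own group. Without CaPO4 2, naringenin aortas were higher than CaPO4 aortas by 1.58 ± 0.34 for Ccl21b (2.99-fold, limma adjusted p = 0.00673), by 1.53 ± 0.32 for Ccl21c (2.88-fold, limma adjusted p = 0.00599) and by 1.46 ± 0.35 for Gm13304 (2.76-fold, limma adjusted p = 0.0102). All 3 copies then passed, in a fit in which 45.6% of all probes passed and 25.6% passed as higher. Naringenin 3 was scanned apart from the other naringenin arrays and had the lowest Ccl21 levels of its group. With CaPO4 2 and naringenin 3 both left out, the differences were 1.94 ± 0.11, 1.83 ± 0.14 and 1.83 ± 0.11 for Ccl21b, Ccl21c and Gm13304 (limma adjusted p of 7.06e-05, 0.000198 and 8.86e-05), while 58.1% of probes passed and 34.2% passed as higher. Both arrays were singled out with their values known, and leaving them out widens this difference. The p-values without them are therefore descriptions and not tests of naringenin against CaPO4. Within the single scan that held CaPO4 1 to 3 and naringenin 1 and 2, the median difference over the copies was 1.19. In that fit limma called 0 of 37498 probes (4064 had an unadjusted p under 0.05), so the absence of calls among the copies carries no information about them.

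The differences from control are descriptions. In naringenin minus control, Ccl21b differed by 4.21 ± 0.55, Gm13304 by 4.03 ± 0.54 and Ccl21c by 3.81 ± 0.53 log2 (SE, n = 3 per group). In CaPO4 minus control, the values were 3.30 ± 0.55, 3.20 ± 0.54 and 2.94 ± 0.53 in the same order of genes. Both comparisons share the control arrays. All 3 copies were past the limma threshold in both, which their choice by these same differences had set, against 45.9% of 37307 probes in naringenin minus control (22.7% as higher) and 21.4% in CaPO4 minus control (10.1% as higher). The median over the copies was 4.03 against 0.03 over all probes and 1.63 over the 112 RefSeq probes in naringenin minus control, and 3.20 against -0.04 and 0.96 in CaPO4 minus control. All 3 control arrays were scanned apart from the rest, so scan and treatment cannot be told apart in these comparisons.

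Single arrays varied more than these means show. Relative to the control mean, Ccl21b stood at 23.8-, 23.5- and 11.3-fold on naringenin 1 to 3 and at 5.94-, 24.9- and 6.44-fold on CaPO4 1 to 3. Ccl21c stood at 17.2-, 17.6- and 9.19-fold on naringenin 1 to 3 and at 4.75-, 19- and 5.03-fold on CaPO4 1 to 3. Gm13304 stood at 20.7-, 21.2- and 9.84-fold on naringenin 1 to 3 and at 5.83-, 22.4- and 6-fold on CaPO4 1 to 3. The lowest treated array of each copy was therefore CaPO4 1. Without CaPO4 2, the CaPO4 minus control values were 2.63 for Ccl21b, 2.29 for Ccl21c and 2.56 for Gm13304, in a fit in which 31.5% of all probes passed in either direction and 14.1% as higher.

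Before scaling, the arrays differed in their own brightness. The 75th percentile lay at 88.7, 94.0 and 239 units on naringenin 1 to 3, at 45.5, 85.0 and 43.7 units on CaPO4 1 to 3, and at 119 to 120 units on the controls. Unscaled, Ccl21b had 68163, 71350 and 87316 units on naringenin 1 to 3 and 8727, 68254 and 9084 units on CaPO4 1 to 3. The lower level of naringenin 3 was thus not a lower intensity, as its Ccl21b spot was the brightest of the 9 and its percentile was also the highest. Without scaling, CaPO4 minus control was 1.83 to 2.19 over the copies, while the median of all probes fell by 1.15.

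Differences between the Ccl21 probes within 1 array do not depend on the scaling and were small. Ccl21b minus Ccl21c was 0.02, -0.02 and -0.15 log2 on naringenin 1 to 3, -0.12, -0.06 and -0.09 on CaPO4 1 to 3, and -0.19, -0.49 and -0.64 on control 1 to 3. Ccl21b minus Gm13304 ranged from -0.39 to 0.00 and Ccl21c minus Gm13304 from -0.05 to 0.37 over the 9 arrays. Feature Extraction gave each spot an error of 10% of its signal, which makes 0.20 log2 for a difference between 2 spots. Of the 27 differences, 2 exceeded 2 such errors, both for Ccl21b minus Ccl21c on control 2 and 3. This count rests on the software's error, which was the same for every spot. Over 15 other probes with repeated spots, the median SD between spots was 0.088 to 0.111 log2 on the controls. It was 0.037 to 0.084 on the treated arrays. On the treated arrays, no pair of probes differed by more than 0.17 log2.

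**Figure D2:**
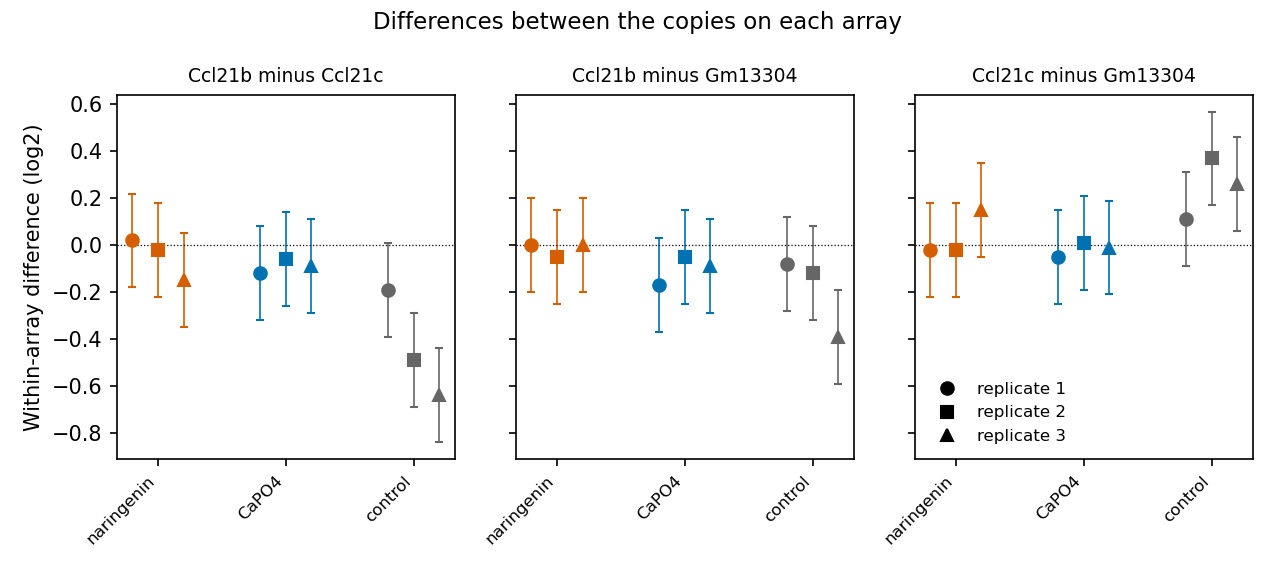
Within-array difference between each pair of Ccl21 probes (y axis, log2) on the naringenin, CaPO4 and control arrays, with a marker shape per replicate number. Error bars are the error of the difference from the scanner software's spot errors, 0.20 log2; the control arrays reach -0.64 for Ccl21b minus Ccl21c, while the treated arrays stay within 0.17 of 0.

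Whether the copies moved apart between groups was tested on these within-array differences. The choice of the genes did not use them, but they come from the same spot values. An exact permutation test over all assignments of the 9 arrays to the groups gave p = 0.0179 for Ccl21b against Ccl21c, 0.0607 for Ccl21c against Gm13304 and 0.125 for Ccl21b against Gm13304. Adjusted over the 3 pairs, these became 0.0536, 0.0911 and 0.125 in the exact permutation test, so no pair passed, and the smallest unadjusted p that the design allows is 0.00357. The mean of Ccl21b minus Ccl21c was -0.05 ± 0.09 in naringenin, -0.09 ± 0.03 in CaPO4 and -0.44 ± 0.23 in control aortas (SD, n = 3 each). The mean of Ccl21c minus Gm13304 was 0.04 ± 0.10 in naringenin, -0.01 ± 0.03 in CaPO4 and 0.25 ± 0.13 in control aortas. The control arrays were scanned apart and had the dimmest Ccl21 spots. Scan and brightness thus cannot be told apart from treatment in a shift between control and treated arrays. On naringenin 1 to 3 and CaPO4 2 the deposited signal had been multiplied by a detrending surface, on the other 5 arrays it had not. On the signal before that step, Ccl21b against Ccl21c and Ccl21c against Gm13304 passed the exact permutation test, with adjusted p of 0.0214 and 0.0268, and naringenin minus control of these ratios was 0.30 and -0.21, against 0.39 and -0.21 with the detrended signal. With normexp background correction on the median spot signal, which also lacks that step, the exact permutation test gave adjusted p of 0.204 and 0.193. So these pairs passed only on the signal before detrending, a setting chosen after seeing the data. Whether they moved apart between the groups depended on how the signal was processed. The brightness of a spot also depends on its probe, and each copy had 1 probe of a sequence not used here, so like levels do not show whether these probes tell the copies apart, and the values of single copies are uncertain.

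Other probes of the same arrays also stood high on CaPO4 2. Amy2a5, a pancreatic amylase gene and the only one of 6 pancreatic acinar markers with a named probe, had levels of 11, 11.12 and 9.93 on naringenin 1 to 3, 2.03, 11.05 and 2.04 on CaPO4 1 to 3, and 0.10, 0.54 and 0.70 on control 1 to 3. Its order over the treated arrays was like that of the Ccl21 copies, with CaPO4 2 beside naringenin 1 and 2, and its part in the Ccl21 values was not tested. Ccl21b minus Amy2a5 was -1.41, -1.55 and -1.42 on naringenin 1 to 3, and 5.55, -1.40 and 5.66 on CaPO4 1 to 3. On control 1 to 3 it was 4.95, 4.51 and 4.23. This difference was thus not steady within CaPO4, where CaPO4 2 lay beside the naringenin arrays.

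Gapdh, a glycolytic enzyme often used as a reference and measured on 20 spots, had levels of 9.59, 9.58 and 8.24 on naringenin 1 to 3, 7.73, 9.72 and 7.93 on CaPO4 1 to 3, and 7.91 to 8.01 on the controls. Relative to Gapdh on the same array, Ccl21b stood at 0.00, -0.01 and 0.28 log2 on naringenin 1 to 3, at -0.15, -0.07 and -0.24 on CaPO4 1 to 3, and at -2.86, -2.92 and -3.08 on control 1 to 3. CaPO4 2 no longer stood apart from its group on this scale, and the SD of the CaPO4 group was 0.08, against 1.16 relative to the 75th percentile. Gm13304 relative to Gapdh averaged 0.10 ± 0.15 in naringenin, -0.05 ± 0.08 in CaPO4 and -2.76 ± 0.06 in control aortas (SD, n = 3 each), and Ccl21c averaged 0.14 ± 0.25, -0.06 ± 0.08 and -2.51 ± 0.13 in the same order of groups.

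The order of naringenin and CaPO4 depended on the probe used for comparison. Relative to B2m, the light chain of MHC class I, Ccl21b stood at -0.36, -0.34 and -0.18 on naringenin 1 to 3, above -1.29, -0.76 and -1.23 on CaPO4 1 to 3. Relative to Gm13305, a gene of the same chromosome 4 cluster, Ccl21b stood at 2.62, 2.62 and 2.52 on naringenin 1 to 3, below 2.92, 2.85 and 2.98 on CaPO4 1 to 3. Both groups lay above the controls on each of these scales, where Ccl21b stood at -4.05 to -3.82 relative to B2m and at 0.92 to 1.22 relative to Gm13305. Such ratios show unequal change of 2 probes and not which of them changed.

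**Figure D3:**
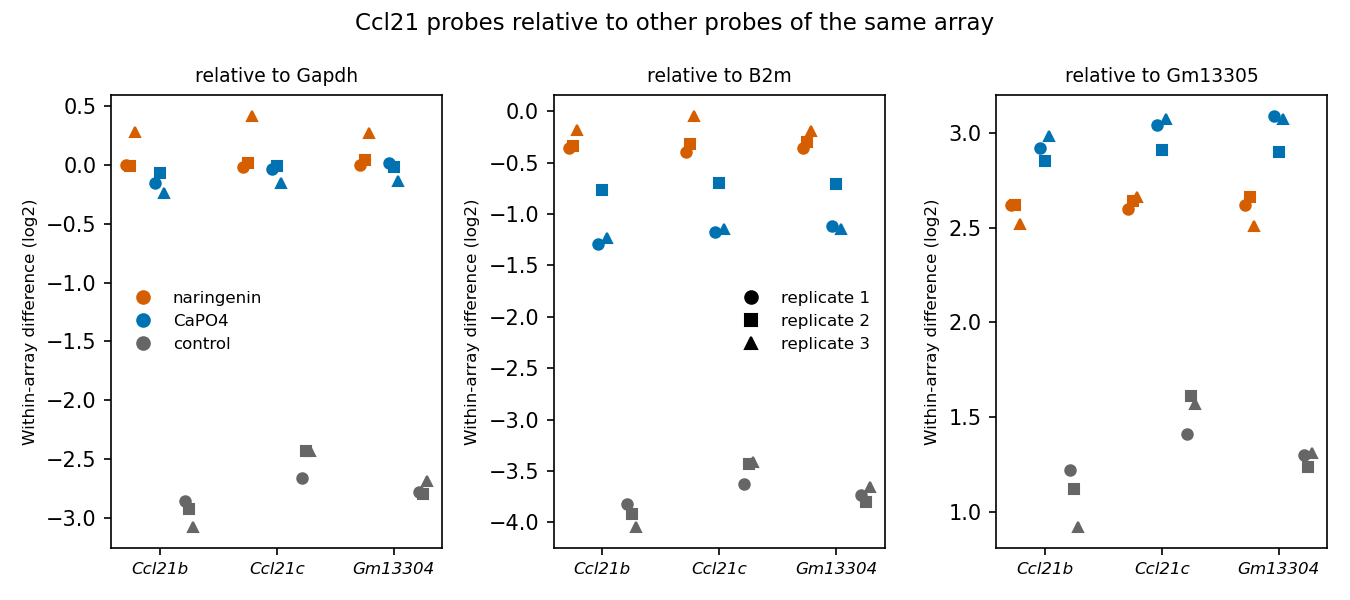
Within-array difference of each Ccl21 probe to Gapdh, B2m and Gm13305 (y axes, log2) in naringenin, CaPO4 and control aortas, with a marker shape per replicate number. Naringenin arrays lie above CaPO4 arrays relative to B2m and below them relative to Gm13305, and control arrays lie lowest in each panel; each panel has its own y axis.

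The Ccl21 copies lie in a duplicated cluster, and 3 other genes that the table places between Ccl21d and Ccl21a on chromosome 4 had a probe, of 1 spot each. They were chosen after the arrays had been opened. Gm13305 had levels of 6.97, 6.95 and 5.99 on naringenin 1 to 3, 4.66, 6.80 and 4.72 on CaPO4 1 to 3, and 3.83, 3.93 and 4.01 on control 1 to 3. It was higher in naringenin than in control by 2.71 ± 0.56 log2 (SE, n = 3 per group, limma adjusted p = 0.00406), while CaPO4 minus control was 1.47 ± 0.56 (limma adjusted p = 0.0848). Of all probes, 45.9% passed in naringenin minus control (22.7% as higher), and scan and treatment cannot be told apart there. Fam205a2 had levels of 0.37, 0.51 and -0.48 on naringenin 1 to 3, -1.74, 0.20 and -1.35 on CaPO4 1 to 3, and -2.19, -2.76 and -3.03 on control 1 to 3, but it was well above background on only 5 of the 9 arrays, so no size is given for its difference. Gm21953 ran the other way, at 3.51, 3.48 and 2.90 on naringenin 1 to 3, 3.71, 3.12 and 3.76 on CaPO4 1 to 3, and 3.91 to 3.94 on the controls, and its naringenin minus control value of -0.63 ± 0.32 did not pass (limma adjusted p = 0.131). In naringenin minus CaPO4, neither Gm13305 nor Gm21953 passed (limma adjusted p of 0.184 and 0.658).

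**Figure D4:**
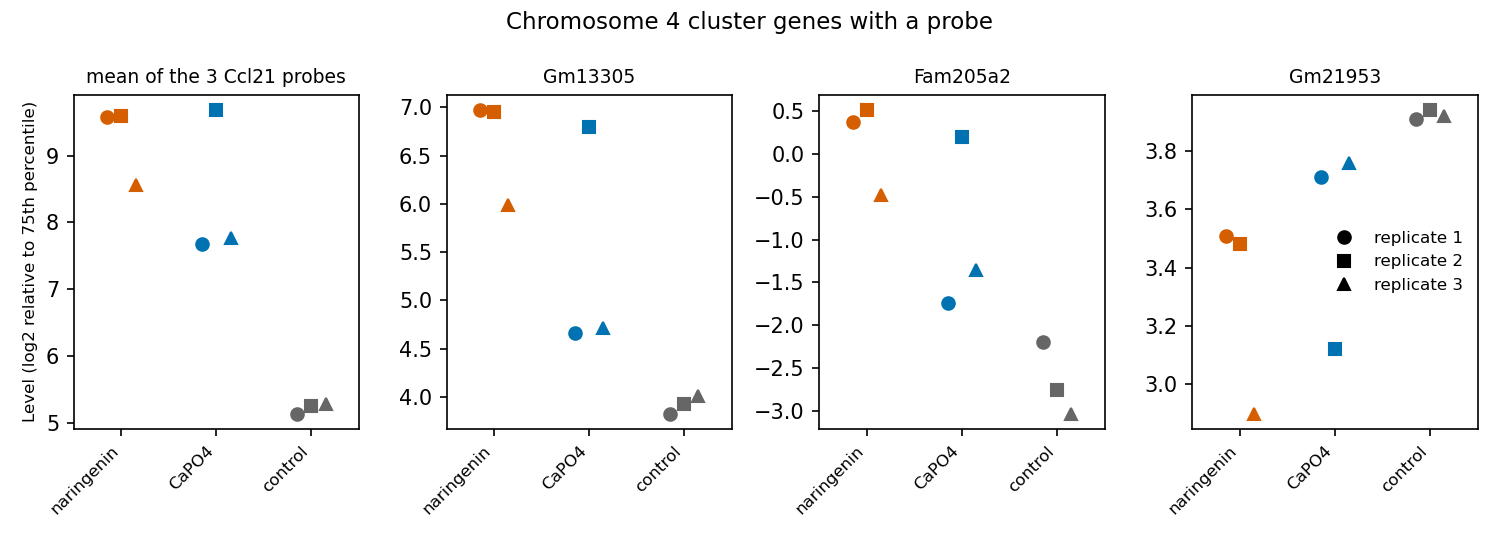
Levels (y axes, log2, relative to the 75th percentile of each array, each panel on its own scale) of the mean of the 3 Ccl21 probes and of the 3 other cluster genes with a probe, in naringenin, CaPO4 and control aortas. Gm13305 and Fam205a2 have CaPO4 2 beside the naringenin arrays, as the Ccl21 probes do, and Gm21953 is lowest on naringenin 3 at 2.90.

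Of the wider pathway little was named on this array. Of 18 genes of the CCR7 axis, which included the second CCR7 ligand Ccl19, the receptor Ccr7, the scavenging receptor Ackr4 and the lymphotoxin genes, 0 had a named probe. The same held for 0 of 7 markers of lymphatic endothelium, 0 of 7 of lymph node stroma, 0 of 6 of T cells, 0 of 5 of dendritic cells and 0 of 3 of B cells, so the cells that held the Ccl21 RNA could not be read from markers. The labelled tissue could not be checked by markers of the vessel wall either, as 0 of 5 smooth muscle and 0 of 4 endothelial markers were named. The pancreatic gene Amy2a5 was named and, as given above, stood far higher on CaPO4 2 and the naringenin arrays than on the rest. What this means for the tissue on those arrays was not tested. The only other chemokine gene with a named probe was Ccl28, a ligand of CCR10 in mucosal tissue, which was singled out after its values were seen. Its levels were -3.11, -2.75 and -3.10 on naringenin 1 to 3, -3.79, -2.19 and -3.55 on CaPO4 1 to 3, and -1.57, -2.03 and -3.60 on control 1 to 3. It was well above background on 4 of the 9 arrays, and the ranges of its 3 groups overlapped.

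Among genes with a RefSeq name, those whose levels over the 9 arrays were most like the mean of the Ccl21 probes were Gm20854 (Pearson r = 0.992), Gm16367 (0.987), Vmn1r157 (0.985), Gm20917 (0.985) and Csprs (0.982). Gm20854 had levels of 3.72, 3.68 and 2.61 on naringenin 1 to 3, 1.64, 3.40 and 1.73 on CaPO4 1 to 3, and 0.02 to 0.08 on the controls. The table places Gm20854 and Gm20917 on the Y chromosome, and Vmn1r157 is a vomeronasal receptor gene. Gm16367 was well above background on 4 arrays and Csprs on 6. Among noncoding elements, MM9LINCRNAEXON11690-_P1 (0.995), MM9LINCRNAEXON10740-_P1 (0.992) and MM9LINCRNAEXON10940-_P1 (0.991) were most like the Ccl21 probes. In that order, these elements were well above background on 4, 6 and 9 arrays. The correlations describe 9 arrays that fall into groups and share their scaling. An r over 0.95 was reached by 16.5% of 103 other RefSeq probes and by 4.5% of 36920 probes overall.

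**Figure D5:**
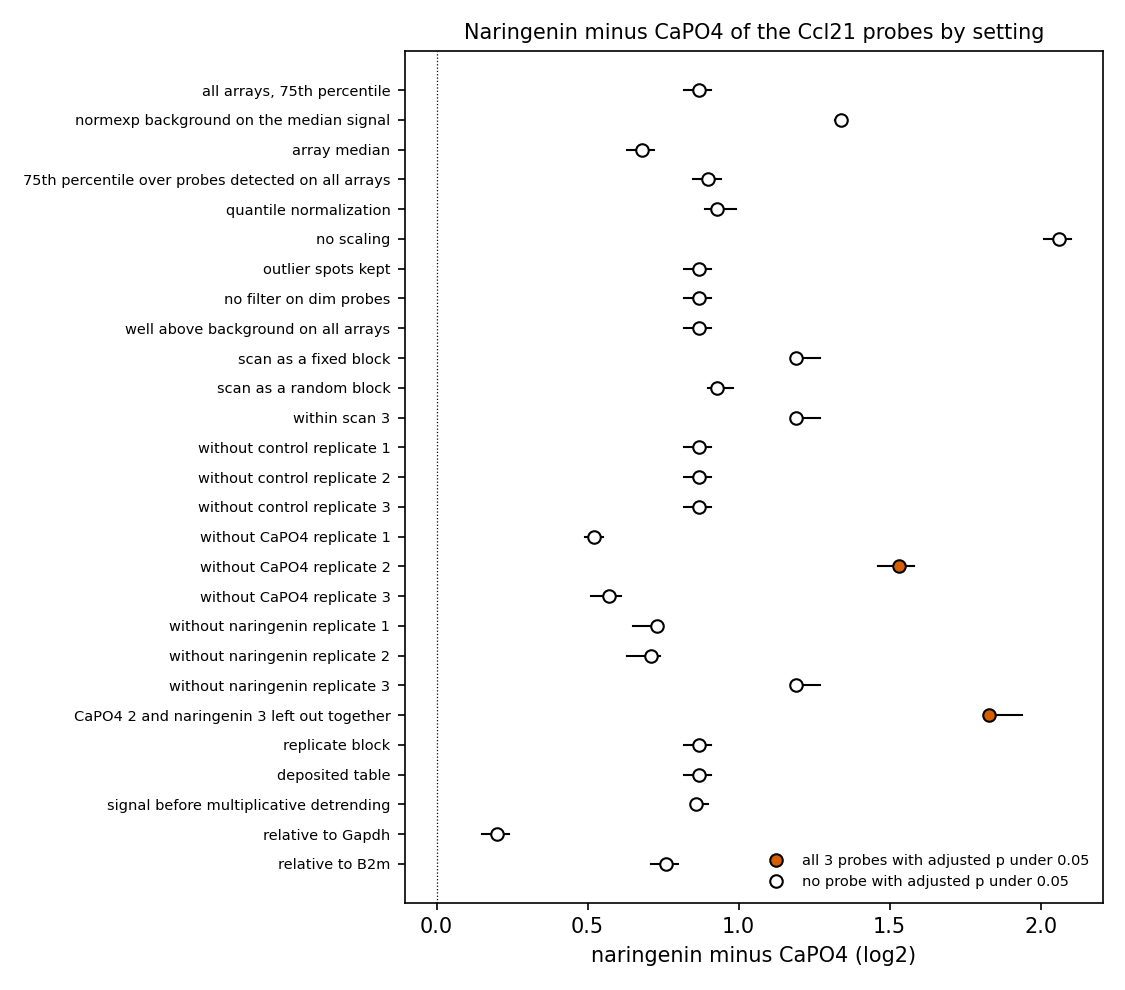
Naringenin minus CaPO4 of the Ccl21 probes (x axis, log2) under each processing setting (y axis). Circles are the median of the 3 probes and lines run from the lowest to the highest probe. Filled circles mark the settings in which all 3 passed in limma, which were those without CaPO4 2. All values shown lie above 0. The scale relative to Gm13305, where naringenin lay below CaPO4, is not among these settings.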

How the data were processed

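Per the file headers, the deposited spot intensity values came from Agilent Feature Extraction, version 11.0.1.1. Background subtraction and detrending were done array by array, with no scaling between arrays, and the multiplicative part of the detrending is recorded for CaPO4 2 and naringenin 1 to 3. Per the labels' protocols, rRNA was depleted before random-primed amplification, and the label was Cy3. The deposited table of all arrays held the same intensity values within 0.0999%.

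Array controls, negative control sequences, ERCC spike-ins and outlier spots were removed. Log2 intensities were centred on each array's 75th percentile over spots, and spots of a probe were averaged. Of 59709 probes, those detected well above background on 3 or more arrays (37498) were tested in a single limma fit of the 3 groups, two-sided, with Benjamini-Hochberg adjustment over all of them; 37307 had an estimate against control. Of 123 RefSeq accessions, 116 matched the name table (GRCm38.p6). The members, gene lists and alternatives were chosen with earlier results of these data known. Named genes were the copies, the 5 RefSeq genes and 3 noncoding elements most like them, the CCR7 list, Amy2a5, Gapdh, B2m and Gusb. Gusb, an enzyme gene used as an array check, had levels of 3.92, 3.88 and 2.73 on naringenin 1 to 3, 3.49, 4.47 and 3.60 on CaPO4 1 to 3, and 1.65 to 1.77 on controls. Of 4 adipose markers, 0 had a named probe. The procedures were run on simulated data with independent noise and no array or scan effects. That run does not show how they behave on arrays like these. Software was R 4.3.3, limma 3.58.1, the data.table package (1.17.8), jsonlite 2.0.0, Python 3.11.15 and matplotlib 3.10.9.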

Additional observations from a re-analysis of the deposited data

How the results depend on the processing

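The naringenin minus CaPO4 median of the Ccl21 copies stayed positive in all 26 alternatives, from 0.20 to 2.06. It passed in 2 of them, both without CaPO4 2. The alternatives are not independent. Leaving out a control array, changing the filter on dim probes, a replicate block or the deposited table could not move this median from 0.87. Scan as a fixed block, within scan 3 and without naringenin 3 all gave 1.19. Relative to Gm13305, which was not among the alternatives, naringenin lay below CaPO4. The median was 0.52 to 1.53 when 1 array was left out at a time and 1.83 with CaPO4 2 and naringenin 3 left out together. CaPO4 minus control moved to 2.09 without scaling, and naringenin minus control to 2.86 relative to Gapdh, an alternative chosen after seeing the data, as were B2m and the signal before detrending. That signal gave the ratios of 0.30 (Ccl21b to Ccl21c) and -0.21 (Ccl21c to Gm13304) that passed. The 817 probes called in naringenin minus CaPO4 became 223 with normexp, 1417 by the array median, 1482 by quantiles, 294 without scaling, 416 without the filter, 381 with detection on all arrays, 170 with scan as a fixed block, 0 within scan 3 (limma, 4064 at an unadjusted p under 0.05), 136 relative to Gapdh, 241 relative to B2m, 21770 without CaPO4 2 and naringenin 3, and 37 (without CaPO4 3) to 17085 (without CaPO4 2) with 1 array left out. Not every pair of same-numbered arrays deviated together (r from -0.41 to 0.45), which does not settle whether equal numbers mean a pair. With a replicate block the median of naringenin minus CaPO4 was 0.87, with 0 copies and 411 probes called. The cause of these shifts was not tested. Normexp was run on the median spot signal. With scan as a fixed block, the controls had no term of their own. The block then only set naringenin 3 apart, and leaving out naringenin 3 also gave 170 probes.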
